A study of Mus musculus with 6 samples.

Results

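The Krüppel-like factors (KLFs) are zinc-finger transcription factors that bind GC-rich and CACCC-type sequences through a shared C-terminal DNA-binding domain. Family members differ in their N-terminal parts. Some recruit coactivators, Klf3 recruits the corepressor CtBP, and others recruit the corepressor SIN3. In epithelial and tumour cells the family is known for control of proliferation, quiescence and differentiation, and several members are induced within a short time by growth factors, stress or hormones. Here 10 genes of the family were followed in 4T1, a tumorigenic and metastatic line of mouse mammary carcinoma cells. The genes are Klf2, Klf3, Klf4, Klf5, Klf6, Klf7, Klf9, Klf10, Klf11 and Klf13, and they were read by 34 of the 45037 probe sets of an Affymetrix mouse array. A probe set is a group of short probes that reads 1 transcript region, and every probe set assigned to exactly 1 of these symbols was kept.

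Each of 3 arrays measured 4T1 cells transduced with a control shRNA vector, and each of 3 others measured 4T1 cells transduced with a vector expressing an shRNA against NFAT1, the calcium-activated transcription factor encoded by Nfatc2. All cells went through 10 days of selection before RNA was collected. The comparison asks which transcripts differ between the groups. The sequence of the shRNA, the number of shRNAs tested and whether cells were pooled or clonal are not given in the sources used here. The labels do not say that the replicates were separate cultures, so the spread between arrays may be technical.

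The members were chosen by family name with the values of this same contrast known, and Klf2 was selected on its difference between the groups. Member values are therefore given as a description, without a test that could support them, and no other samples were available in which to repeat them. Values are log2 RMA signals, so a difference of 1 is 2-fold, and differences are NFAT1 shRNA minus control. Array medians ran from 5.42 to 5.48, and RMA compresses differences of probe sets below that level, which held for 6 member probe sets in both groups. "Changed" means an adjusted p under 0.05 in a limma fit over all probe sets or all genes.

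Within each group an array stood between or apart from the others. Among 157 genes that spanned at least 2-fold over the controls and reached a signal of 7, control 3 lay between the other controls for 100%. Among 1072 such genes on the NFAT1 shRNA arrays, NFAT1 shRNA 1 was the middle array for 5.04%. Of the 6 probe sets of Nfatc2, the targeted gene, 4 were lower and 2 were higher in NFAT1 shRNA cells, with differences from -0.76 to 0.35 and 0 changed with limma (3 had an unadjusted p under 0.05), so the arrays are named here by their labels. Epithelial markers were bright, with all 10 genes between 7.46 and 13.23. The basal keratin gene Krt14 among them was lower on all NFAT1 shRNA arrays, with 10.67, 10.38 and 10.56 on the controls against 9.38, 7.46 and 8.40, a difference of -2.12 ± 0.44 (SE, limma adjusted p = 0.123 over all genes). The part of this difference in the results on the KLF genes was not tested. All 8 endothelial markers had a mean below 6 in both groups, as did 6 of 7 leukocyte markers (all but Csf1r, which reached 9.01) and 7 of 8 fibroblast markers (all but Pdgfra, which reached 8.44). RNA per cell and the share of cells of a type cannot be told apart in these bulk samples.

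Of the 10 genes, 8 have an entry in the RefSeq promoter table (GRCm38.p6); Klf5 and Klf10 do not. The 250 bases before the annotated start of Klf2 (plus strand, chr8:72318812-72319061) and of Klf3 (plus strand, chr5:64803271-64803520) are shown because these genes had the largest difference of the members and the most probe sets apart between groups. Capitals mark matches, on either strand, to the MEF2 consensus, to GGAAA (the core bound by NFAT proteins) or to CACCC (the core bound by KLFs).
Klf2: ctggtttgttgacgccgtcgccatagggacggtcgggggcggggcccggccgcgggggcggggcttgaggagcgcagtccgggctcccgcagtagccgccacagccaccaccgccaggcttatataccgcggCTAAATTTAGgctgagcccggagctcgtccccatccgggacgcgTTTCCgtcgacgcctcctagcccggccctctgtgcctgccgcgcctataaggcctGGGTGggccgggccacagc
Klf3: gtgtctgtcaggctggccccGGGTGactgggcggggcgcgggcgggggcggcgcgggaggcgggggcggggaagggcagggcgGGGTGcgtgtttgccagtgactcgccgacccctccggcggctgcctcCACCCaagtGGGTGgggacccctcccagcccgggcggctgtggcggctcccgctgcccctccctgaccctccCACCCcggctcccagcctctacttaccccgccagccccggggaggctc

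The Klf2 window holds 1 match to the MEF2 consensus, from 118 to 109 bases before the start. MEF2 factors are the known mediators of Klf2 induction by the kinase ERK5. It was the only one of the 8 member promoters with such a match, which 2.92% of all 32851 promoter windows of this length hold. GGAAA was found in 3 of the 8, those of Klf2, Klf6 and Klf9, and in 55.6% of all windows. CACCC was found in 5 of the 8, with 5 matches for Klf3 and 1 for Klf2, and in 52.0% of all windows. The GC box GGGCGG, read by SP and KLF proteins, was in 7 of the 8 and in 32.7% of all windows. A match describes the letters of the window and not binding. In the Klf3 window a GC box and a CACCC match share 1 base, and no marked matches overlap in that of Klf2.

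Klf2 keeps T cells and endothelium quiescent. Its 1 probe set (1448890_at) gave signals of 5.95, 5.27 and 5.78 in control cells and of 8.11, 7.81 and 7.73 in NFAT1 shRNA cells. All 3 NFAT1 shRNA arrays lay above every control, and NFAT1 shRNA 1 was the highest of them. The means were 5.67 ± 0.36 and 7.89 ± 0.20 (SD, n = 3 each), a difference of 2.22 ± 0.20 (SE) or 4.65-fold. The control mean lay near the array medians. Of all 45037 probe sets 19 had a larger positive difference. The Klf2 probe set was the only 1 of the 34 that was changed (limma, adjusted p = 0.0233 over all probe sets), and 0.200% of all probe sets were changed. This call chose the gene and supports nothing. It was lost without any 1 control array (adjusted p = 0.125, 0.117 and 0.233 without control 1, 2 and 3) and without NFAT1 shRNA 2 (0.0884), with differences there between 2.02 and 2.36. In each of these settings 0 of all probe sets passed, so the loss was not particular to Klf2. Klf2 differed by 2.16 without both control 3, the middle control, and NFAT1 shRNA 1, which stood apart, with an adjusted p of 0.064.

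**Figure D1:**
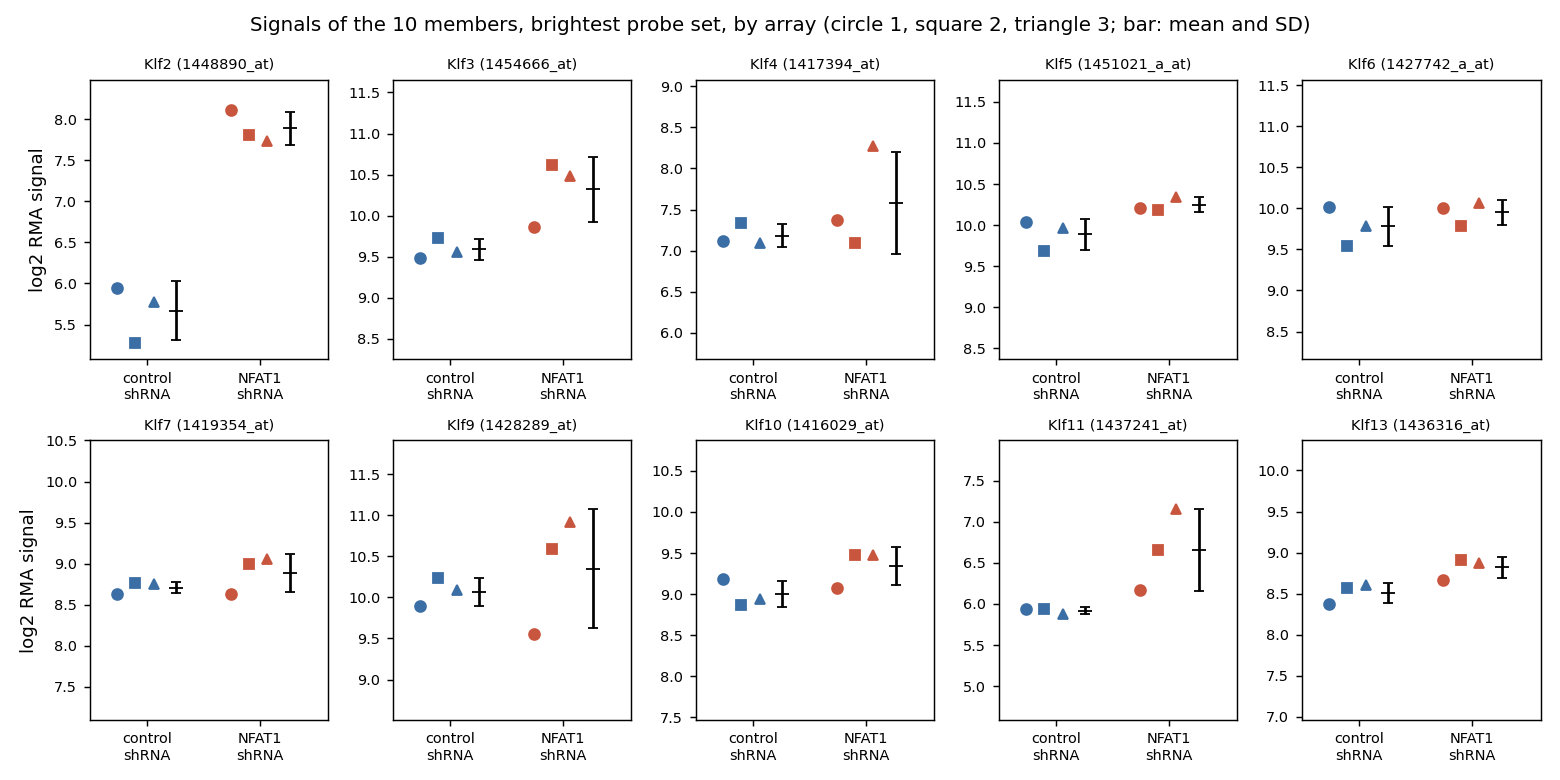
Log2 RMA signal of the brightest probe set of each of the 10 genes on the 3 control shRNA arrays (blue) and the 3 NFAT1 shRNA arrays (red), with the mean and SD of each group (n = 3) as a black bar. Each panel spans the same range of log2 units. The groups do not overlap for Klf2, Klf3, Klf5, Klf11 and Klf13, and Klf2 has the widest gap. All NFAT1 shRNA arrays lay above all controls for 11.6% of all probe sets. That share was not counted over genes by their brightest probe set, and nothing is read from the members without overlap.

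The other 9 genes, read by 33 probe sets, had 0 changed probe sets, with adjusted p-values from 0.0829 to 0.982. Over all 34 probe sets 32 had the higher mean with NFAT1 shRNA, by a median of 0.26, against 54.2% of all probe sets and a median of 0.02. With array medians subtracted 31 of 34 were higher, Klf9 1422264_s_at being the further exception. All NFAT1 shRNA arrays lay above all controls for 10 of the 34 probe sets, as for 11.6% of all probe sets. An unadjusted p under 0.05 was found for 10 of 34, and for 15.7% of all probe sets. Probe sets of a gene read the same transcript and are not independent, and nothing is read from these counts, since the members were chosen on this contrast.

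**Figure D2:**
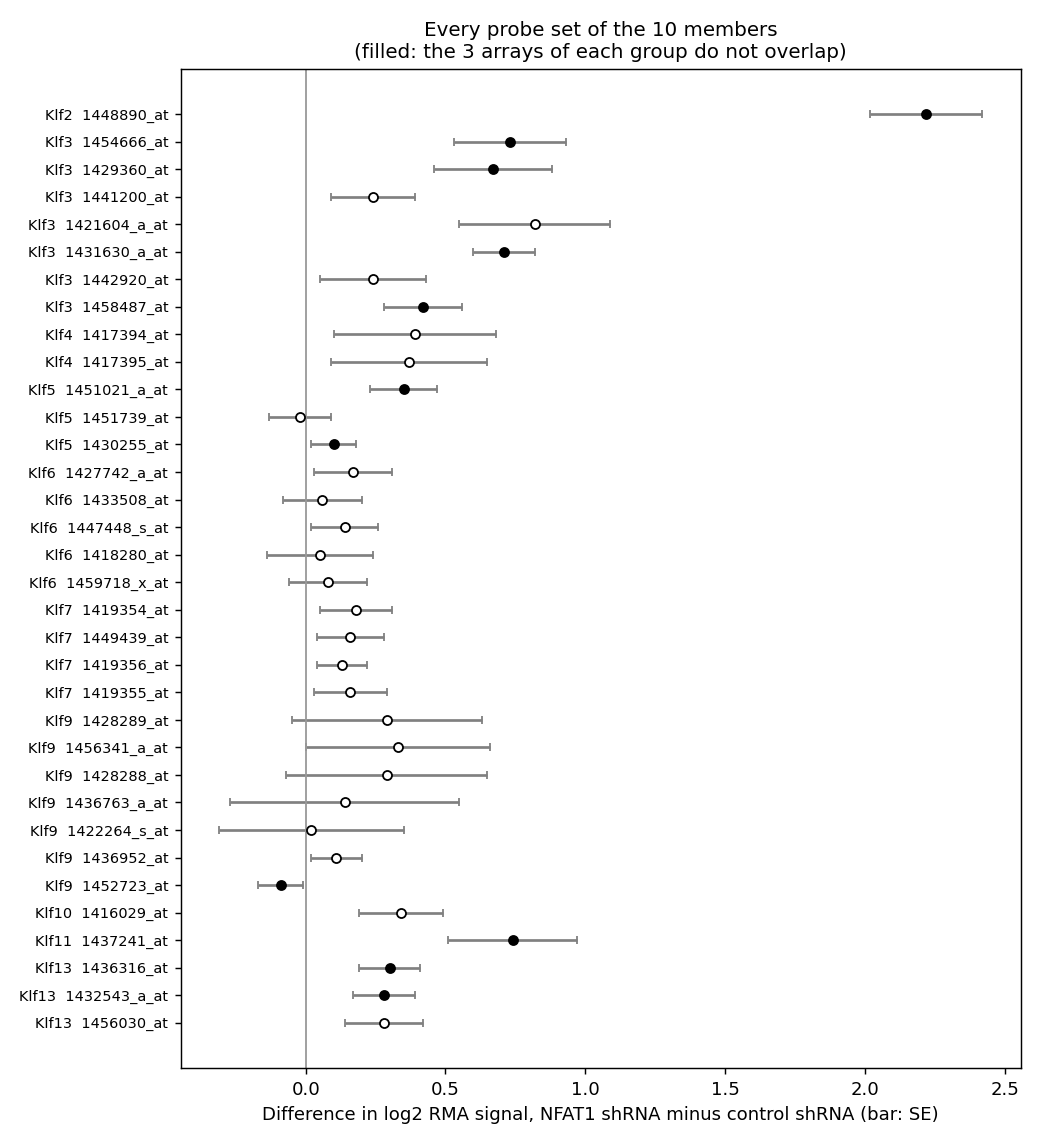
Difference in log2 RMA signal, NFAT1 shRNA minus control, for each of the 34 probe sets (points) with its SE (bars). Filled points mark probe sets whose 3 NFAT1 shRNA arrays do not overlap the 3 controls; 32 of the 34 lie above 0, and Klf2 lies farthest out.

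Klf3, the member that represses through CtBP, was the only member besides Klf2 and Klf11 with a difference of over 0.5 on a probe set. Its brightest probe set (1454666_at) read 9.48, 9.73 and 9.56 on the controls and 9.86, 10.62 and 10.48 on the NFAT1 shRNA arrays. The groups did not overlap, but NFAT1 shRNA 1 lay close to the controls. The difference was 0.73 ± 0.20 (SE). All 7 Klf3 probe sets had a higher mean, by 0.24 to 0.82, and 4 of them did not overlap. On the tightest of these (1431630_a_at) the controls read 7.16, 7.39 and 7.26 and the NFAT1 shRNA arrays 7.80, 8.11 and 8.03, a difference of 0.71 ± 0.11.

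The activators Klf4, Klf5, Klf6 and Klf7 showed smaller differences than Klf2. Klf4, a factor of epithelial differentiation and of reprogramming to pluripotency, read 7.12, 7.34 and 7.09 on the controls and 7.37, 7.09 and 8.27 on the NFAT1 shRNA arrays (1417394_at). NFAT1 shRNA 3 was higher by 1.09 than the control mean, NFAT1 shRNA 1 lay just above the highest control and NFAT1 shRNA 2 at the lowest. The second Klf4 probe set read the same way, with 8.13 on NFAT1 shRNA 3 against 6.95 to 7.17 on the controls. Without NFAT1 shRNA 3 the Klf4 difference was 0.04, against 0.39 ± 0.29 (SE) with it.

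Klf5, which promotes proliferation of basal epithelial cells, had probe sets that did not go one way. The brightest (1451021_a_at) read 10.04, 9.68 and 9.97 on the controls and 10.21, 10.19 and 10.34 on the NFAT1 shRNA arrays, without overlap and with a difference of 0.35 ± 0.12 (SE). On 1451739_at the controls read 7.62, 7.60 and 7.57 and the NFAT1 shRNA arrays 7.78, 7.57 and 7.38, a difference of -0.02 ± 0.11. The NFAT1 shRNA arrays there lay on both sides of the controls.

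Klf6, an early response gene and tumour suppressor, read 10.02, 9.54 and 9.79 on the controls and 10.00, 9.78 and 10.07 on the NFAT1 shRNA arrays (1427742_a_at). The groups overlapped on all 5 Klf6 probe sets, with differences from 0.05 to 0.17. Klf7, known for axon growth in neurons, read 8.63, 8.76 and 8.75 on the controls and 8.63, 9.00 and 9.06 on the NFAT1 shRNA arrays (1419354_at). Its 4 probe sets all overlapped, with differences from 0.13 to 0.18, and NFAT1 shRNA 2 and 3 were above every control on all 4. NFAT1 shRNA 1 was below the control mean on 3 of them.

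Klf9, Klf10, Klf11 and Klf13 repress through SIN3, and Klf9 is a well-known target of glucocorticoid and thyroid hormone receptors. Klf9 read 9.89, 10.23 and 10.09 on the controls and 9.55, 10.59 and 10.92 on the NFAT1 shRNA arrays (1428289_at). NFAT1 shRNA 1 lay below every control while NFAT1 shRNA 2 and 3 lay above every control. This split gave the widest spread among the brightest probe sets of the 10 genes, with 10.35 ± 0.72 in NFAT1 shRNA cells against 10.07 ± 0.17 in controls (SD, n = 3), and a difference of 0.29 ± 0.34 (SE). NFAT1 shRNA 1 was below every control on 6 of the 7 Klf9 probe sets, and NFAT1 shRNA 3 above every control on 6 of 7. Without NFAT1 shRNA 1 the Klf9 difference was 0.69, and without NFAT1 shRNA 3 it was 0.0012. The dimmest probe set, 1452723_at, was the only one of the 34 with all NFAT1 shRNA arrays below all controls, with a difference of -0.09 at a control mean of 3.12, far below the array medians.

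Klf10, an early gene of the TGF-beta response, read 9.18, 8.87 and 8.94 on the controls and 9.07, 9.47 and 9.48 on the NFAT1 shRNA arrays (1416029_at). NFAT1 shRNA 2 and 3 were above every control and NFAT1 shRNA 1 was within their range, for a difference of 0.34 ± 0.15 (SE). Klf11, its closest relative in the family and also induced by TGF-beta, read 5.94, 5.94 and 5.88 on the controls and 6.17, 6.66 and 7.16 on the NFAT1 shRNA arrays (1437241_at). The controls had an SD of 0.04, and the NFAT1 shRNA arrays lay apart from them and from each other. The difference was 0.74 ± 0.23 (SE), or 1.68-fold. Klf13, known as an activator of the chemokine gene Ccl5 in T cells, read 8.37, 8.57 and 8.60 on the controls and 8.67, 8.91 and 8.87 on the NFAT1 shRNA arrays (1436316_at). The groups did not overlap on 2 of the 3 Klf13 probe sets, this one included, and the 3 Klf13 probe sets differed by 0.28 to 0.30.

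The members thus differed in which NFAT1 shRNA array was high. Against the control mean Klf2 was higher by 2.44, 2.14 and 2.07 on NFAT1 shRNA 1, 2 and 3. Klf3 was higher by 0.27, 1.03 and 0.89 and Klf11 by 0.25, 0.74 and 1.24, so their differences lay mainly on NFAT1 shRNA 2 and 3. Over all 34 probe sets the medians were 0.13, 0.29 and 0.37, and 15, 23 and 26 were above every control. The same was true of 34.4%, 37.4% and 33.2% of all probe sets. The 12 probe sets of the SIN3-binding members had medians of 0.01, 0.39 and 0.62, the 15 of the activators 0.14, 0.08 and 0.29, and the 7 of Klf3 0.26, 0.84 and 0.66. Klf9 gives 7 of the 12, and Klf6 and Klf7 give 5 and 4 of the 15, so these medians mostly follow a few genes. The brightest Klf13 probe set, also of a SIN3-binding member, stood at 0.16, 0.40 and 0.36. Without NFAT1 shRNA 1, 10 of the 34 probe sets passed, 4 of Klf3, 3 of Klf9 and 1 each of Klf2, Klf10 and Klf11, as did 5794 of all 45037 probe sets. Nothing is read from this count either, since probe sets of a gene are not independent and the members were chosen on this contrast. Why NFAT1 shRNA 1 stood apart was not tested.

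**Figure D3:**
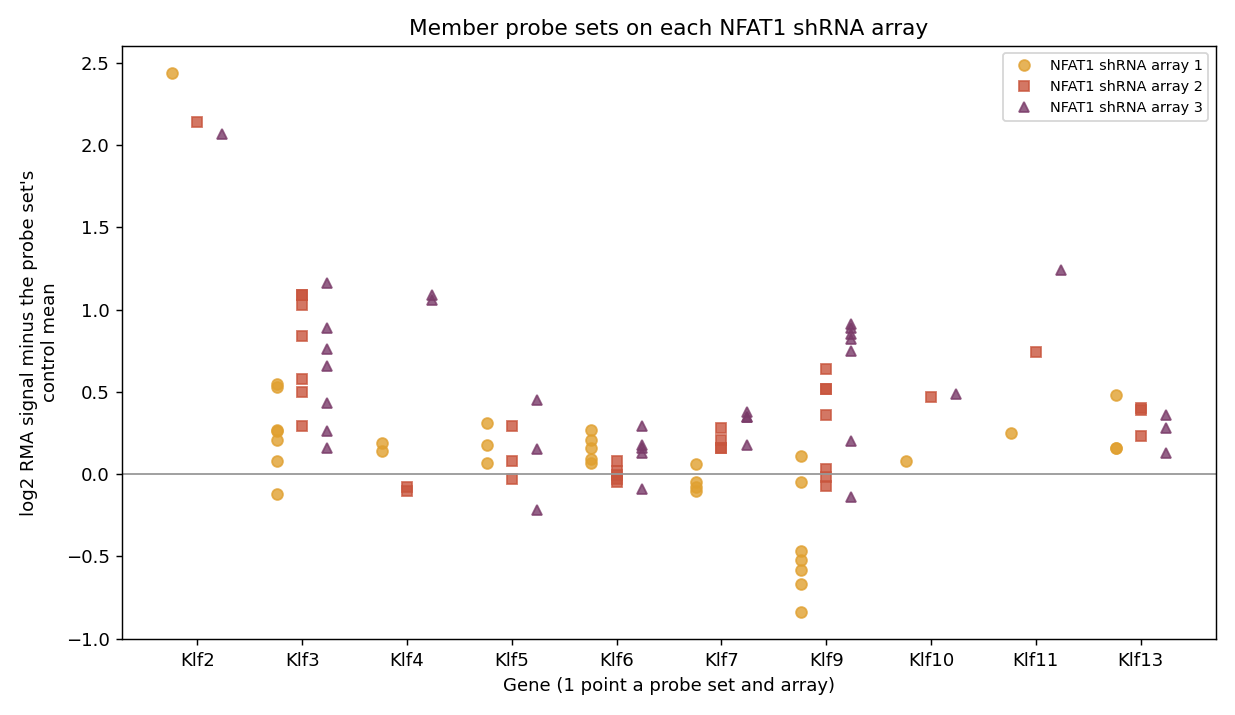
Log2 RMA signal of every member probe set on each NFAT1 shRNA array after subtracting the probe set's own mean over the 3 controls. Klf2 is above 2 on all 3 arrays, while Klf9 lies below 0 on array 1 and above it on array 3 for most probe sets, and both Klf4 probe sets are near 0 on array 2 and above 1 on array 3.

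The genes whose pattern was most like that of Klf2 were found by the root mean square difference over the 6 arrays, after subtracting each probe set's control mean. Among 16506 probe sets with a mean of 6 or more in NFAT1 shRNA cells these were Id4, an inhibitor of basic helix-loop-helix factors (0.22), the pentraxin gene Nptx1 (0.32), the semaphorin gene Sema6d (0.37), the urate oxidase gene Uox (0.38) and the chemokine receptor gene Cxcr3 (0.46). Id4 read 5.24, 4.71 and 5.02 on the controls and 6.98, 7.07 and 6.80 on the NFAT1 shRNA arrays. Like Klf2, it was lowest on control 2. These genes were picked for this likeness, which is no test.

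Of the other KLF and SP genes, 13 of 16 were measured as genes, each by its brightest probe set, and 0 changed with limma over 18193 genes, of which 0.511% changed. None of the 13 had an unadjusted p under 0.05 either, a level that 17.1% of all genes reached. Their median difference was 0.02, against 0.04 over all genes. The 3 with the smallest p were Sp7, an osteoblast factor (0.22 ± 0.11, SE), the ubiquitous activator Sp1 (0.23 ± 0.15) and Klf16, a SIN3-binding repressor (-0.30 ± 0.21). Klf16 read 8.39, 8.17 and 8.20 on the controls and 8.44, 7.64 and 7.80 on the NFAT1 shRNA arrays, so it was low on NFAT1 shRNA 2 and 3 only. Both means were below 6 for 8 of the 13, among them Klf1, Klf12, Klf14, Klf15 and Klf17.

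Upstream of Klf2 and Klf4 lie the MEKK2/3, MEK5 and ERK5 kinases with MEF2 factors and their deacetylase partners, the CCM proteins that restrain MEKK3, and FOXO factors. Of these 22 genes 0 passed the limma test over all genes, while at an unadjusted p under 0.05 there were 5 higher and 0 lower, and 18 of 22 had a higher mean. These are 22.7% of the list with an unadjusted p under 0.05, against 17.1% of all genes, and 81.8% with a higher mean, against 59.3% of all genes. The median difference was 0.25, against 0.04 over all genes. Mef2d read 8.93, 8.78 and 8.85 on the controls and 9.03, 9.29 and 9.23 on the NFAT1 shRNA arrays, a difference of 0.33 ± 0.10 (SE, adjusted p = 0.203). Map3k2, which encodes the kinase MEKK2, differed by 0.64 ± 0.20 (adjusted p = 0.215) and the CCM gene Pdcd10 by 0.26 ± 0.08 (adjusted p = 0.222). Relative to the control means, the median gene stood at -0.03, 0.22 and 0.23 on NFAT1 shRNA 1, 2 and 3. The controls stood at -0.05, 0.03 and 0.01. All 5 genes with an unadjusted p under 0.05 (Mef2d, Map3k2, Pdcd10, the MEKK3 gene Map3k3 and the ERK5 gene Mapk7) were above every control on NFAT1 shRNA 1 too, and Pdcd10 and Map3k3 were highest there. Map3k3 and Mapk7 were added to the named genes after their values were seen.

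Known targets of KLF2, mostly from endothelium and T cells, had differences of both signs. Of 19 measured genes 0 passed with limma over all genes, while at an unadjusted p under 0.05 there were 4 higher and 3 lower. These are 36.8% of the list, against 17.1% of all genes. A higher mean was found for 47.4% of the list, against 59.3% of all genes. Both means were below 6 for 10 of the 19. Edn1, which encodes endothelin and is repressed by KLF2 in endothelium, read 7.16, 6.97 and 6.81 on the controls and 6.19, 5.92 and 6.59 on the NFAT1 shRNA arrays, a difference of -0.75 ± 0.19 (SE, adjusted p = 0.161). F3, the tissue factor gene, also repressed by KLF2 there, read 7.75, 7.68 and 7.56 on the controls and 6.01, 5.11 and 6.97 on the NFAT1 shRNA arrays, a difference of -1.63 ± 0.43 (adjusted p = 0.171). For both genes all NFAT1 shRNA arrays lay below all controls. Nos3, the endothelial nitric oxide synthase gene that KLF2 induces, differed by 0.31 ± 0.08 (adjusted p = 0.168) with group means of 5.78 and 6.09, a dim signal. The other 4 genes with an unadjusted p under 0.05 were added to the named genes after their values were seen. Hmox1, the heme oxygenase gene that KLF2 induces, was lower by mean (-0.45 ± 0.17, adjusted p = 0.269), with overlap between the groups. Kdr, a VEGF receptor gene that KLF2 represses, was higher by mean (0.31 ± 0.12, adjusted p = 0.266), as were Itgb7 (0.38 ± 0.12) and Ptgds (0.23 ± 0.09). Thbd, S1pr1 and Nqo1, also induced by KLF2, differed by 0.02, -0.06 and -0.25. Of the rest of the list, Cdkn1a (0.59), Nov (0.38), Tek (0.11) and Nppc (0.10) were higher by mean. Ccl2 (-0.74), Vcam1 (-0.37), Ass1 (-0.11), Sele (-0.05) and Pparg (-0.05) were lower by mean, and the groups overlapped for all of these. The genes labelled here as induced by KLF2 had both signs. Of those labelled as repressed, Edn1 and F3 were lower and Kdr was higher. The other genes of the list were not labelled by direction, so nothing is read from these signs for the list. The list's median difference was -0.05, against 0.04 over all genes. All 8 endothelial markers had a higher mean in NFAT1 shRNA cells at dim signals, by a median of 0.13. The same held for all 8 fibroblast markers, also by a median of 0.13. A higher mean was found for 3 of 7 leukocyte markers, 5 of 10 epithelial markers and 59.3% of all genes. The median deviations of the endothelial markers were 0.06, -0.13 and 0.07 on the controls and 0.20, 0.20 and 0.04 on the NFAT1 shRNA arrays. Of the 8, Kdr and Emcn (2 genes) had an unadjusted p under 0.05. All NFAT1 shRNA arrays lay above all controls for Kdr, Emcn (2.41, 2.36 and 2.54 against 2.66, 2.72 and 2.74) and Cdh5 (4.26, 4.11 and 4.30 against 4.33, 4.48 and 4.30, apart only beyond the digits shown), but not for Pecam1 (3.19 to 3.46 over all arrays). Kdr and Tek are in both lists. Their part in the values of the list was not tested.

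Targets of KLF4, KLF5, KLF6, KLF9, KLF10 and KLF11 gave 0 changed of 22 with limma, and at an unadjusted p under 0.05 there were 2 higher and 2 lower, with a median difference of -0.10. These are 18.2% of the list, against 17.1% of all genes. A higher mean was found for 36.4% of the list, against 59.3% of all genes. Pdgfa, a growth factor gene activated by KLF5, read 9.73, 9.75 and 9.73 on the controls and 9.33, 9.33 and 9.46 on the NFAT1 shRNA arrays (-0.37 ± 0.08, SE, adjusted p = 0.128). Fgfbp1, which encodes a carrier of fibroblast growth factors, differed by -0.82 ± 0.22 (adjusted p = 0.18). Plau, the urokinase gene and a KLF6 target, differed by 0.73 ± 0.22 (adjusted p = 0.207).

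KLF cofactors and turnover genes gave 0 changed of 20 with limma, and at an unadjusted p under 0.05 there were 1 higher and 1 lower, with a median difference of -0.02. These were the acetyltransferase gene Kat2b (0.67 ± 0.25, SE, adjusted p = 0.27) and Sap30, a SIN3 complex subunit (-0.34 ± 0.11, adjusted p = 0.223). They are 10.0% of the list, against 17.1% of all genes, and 45.0% of the list had a higher mean, against 59.3% of all genes. The ubiquitin ligase gene Btrc, next in order, differed by 0.47 ± 0.20 (adjusted p = 0.301). The list of hormone and TGF-beta genes around Klf9 and Klf10 holds inducers and also glucocorticoid targets such as Per1. It gave 0 changed of 16 with limma and 3 higher with an unadjusted p under 0.05. Its median difference was 0.15, which was 0.07 without NFAT1 shRNA 3. The 3 genes are 18.8% of that list, against 17.1% of all genes, and 68.8% of it had a higher mean, against 59.3% of all genes. Smad3, a transducer of TGF-beta signals, read 9.02, 9.65 and 9.40 on the controls and 9.66, 10.58 and 10.55 on the NFAT1 shRNA arrays, a difference of 0.91 ± 0.28 (adjusted p = 0.217). The clock gene Per1, a glucocorticoid target, differed by 0.52 ± 0.16 (adjusted p = 0.217) and the ligand gene Tgfb3 by 0.76 ± 0.31 (adjusted p = 0.286).

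**Figure D4:**
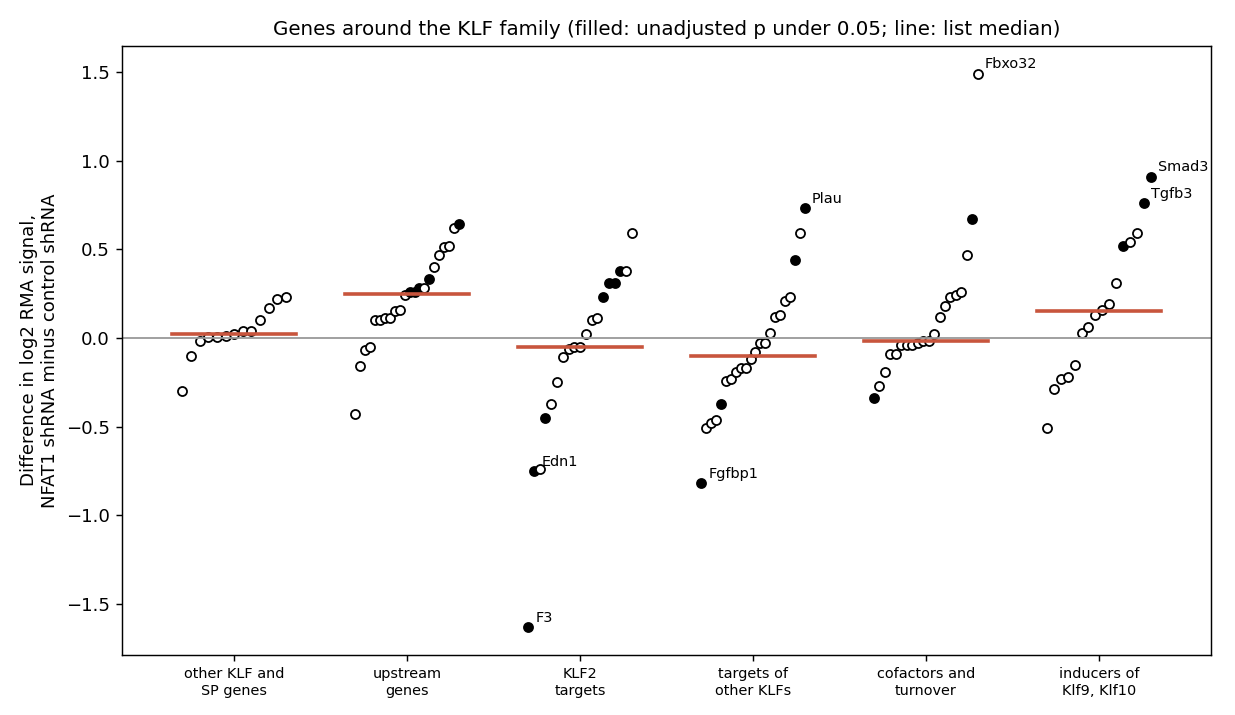
Difference in log2 RMA signal, NFAT1 shRNA minus control, for the genes of the 6 lists around the KLF family (points, 1 gene each by its brightest probe set), with the list median as a red line. Filled points have an unadjusted p under 0.05 and 0 genes passed over all genes. F3 is lowest at -1.63 and Fbxo32 highest at 1.49. The list labelled as inducers of Klf9 and Klf10 also holds glucocorticoid targets such as Per1.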

How the data were processed

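The deposited values of the 6 arrays are log2 signals; per the submitters' processing notes, RMA is the method named for what the authors deposited, and its version is not given in the sources used here. RMA subtracts background, normalizes by quantiles and summarises each probe set. Per the labels' protocols, 200 ng of total RNA was labelled per sample. Arrays have no read depth; their number limits the precision. Probe sets were named through the platform annotation: 34945 had 1 symbol, 932 several, and 9160 are unnamed here.

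Groups and replicate numbers came from the titles. lmFit and eBayes of limma 3.58.1 (R 4.3.3) were fitted to all 45037 probe sets for the members and to 18193 genes, each by its probe set with the highest mean, for the lists, with no filter or covariate. P-values are 2-sided with Benjamini-Hochberg adjustment over all probe sets or genes. The fit was tested on simulated data.

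The members, the 6 lists (117 entries) and the rules were chosen with earlier results of these data known. Text names all members, up to 3 genes a list with the smallest p where none passed, and the 5 genes most like Klf2, skipping predicted genes. Promoters were RefSeq windows of GRCm38.p6, searched on both strands. Alternatives were filters on dim probe sets, scaling, variance prior, array weights, a replicate block, left-out arrays and other choices of probe sets. Of the list entries 5 had no probe set of 1 symbol and were not analysed here.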

Additional observations from a re-analysis of the deposited data

How the results depend on the processing

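Klf2 had a higher mean in NFAT1 shRNA cells under all 15 alternatives, by 2.02 to 2.36, with an adjusted p under 0.05 in 10. It did not pass without control 1 (2.36), control 2 (2.02), control 3 (2.27) or NFAT1 shRNA 2 (2.25), nor without control 3 and NFAT1 shRNA 1 together (2.16). Over the whole array 0 probe sets passed in each of these settings. The other 9 genes kept a higher mean in all 15, by the brightest probe set in 14 and by an average over its probe sets in the other, with Klf4 down to 0.04 and Klf9 to 0.0012. Some of their further probe sets were lower. Without NFAT1 shRNA 3 Klf9 1422264_s_at differed by -0.35 and Klf9 1436763_a_at by -0.24. Klf5 1451739_at differed by -0.12 without NFAT1 shRNA 1, and Klf6 1418280_at by -0.07 without control 3.

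The count of changed member probe sets, 1 as reported, ran from 0 to 10 with an array left out. It was 6 with array weights and 0 without control 3 and NFAT1 shRNA 1. In that last setting 12 of 34 had an unadjusted p under 0.05, as did 9273 of all 45037 probe sets. With a single array left out, the 0 arose without control 1, 2 or 3 or NFAT1 shRNA 2. There limma gave 8, 8, 7 and 7 of 34 at an unadjusted p under 0.05. Over the whole array 3992, 5086, 4251 and 4290 of 45037 probe sets reached that level in these settings. Changed probe sets over the whole array numbered 90, 2279 with array weights, 0 to 5794 with an array left out and 0 without both arrays. Changed genes numbered 93, 3380 with array weights, 0 to 3349 with an array left out and 407 without both arrays. List genes that passed numbered 0 of 107 as reported, where 21 had an unadjusted p under 0.05, against 17.1% of all genes. They numbered 23 with array weights, 2 without both arrays and 0 to 25 with an array left out.

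The titles give replicate numbers but do not say whether they pair the arrays, and the main fit treated the arrays as unpaired. Same-numbered deviations correlated at 0.62, 0.51 and 0.05, and each of the 3 controls correlated best with its own number. Whether the arrays were paired cannot be told from these values. With the replicate block 4 member probe sets passed (3 of Klf3), 1432 probe sets, 792 genes and 4 list genes.

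Of 90 list medians 78 stayed within 1 SD of the value between arrays. Those of the KLF2 targets moved to -0.37 with a filter on dim genes, -0.09 with quantiles normalized again and 0.0048 with array weights, and ran from -0.06 to 0.02 with an array left out. Targets of the other KLFs moved to -0.17 with the filter. Cofactors and turnover genes moved to 0.01 with quantiles normalized again and without both arrays, and ran from -0.02 to 0.05 with an array left out. Why values moved was not tested. Dim signals limit Klf2 in controls and most KLF2 targets.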

Other observations

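Some genes around the family shared the array pattern of Klf9, in which NFAT1 shRNA 1 was not above the controls and NFAT1 shRNA 2 and 3 were above them. They were chosen after their values were seen, and did not pass the limma test over all genes. Tsc22d3, the glucocorticoid-induced leucine zipper gene, read 7.60, 7.84 and 7.71 on the controls and 7.54, 8.29 and 8.93 on the NFAT1 shRNA arrays. Fkbp5 and Sgk1, of the same list, did not share the pattern. Fkbp5 read 9.27, 9.12 and 9.18 on the controls and 9.20, 8.62 and 9.11 on the NFAT1 shRNA arrays. For Sgk1 the signals were 10.47, 10.66 and 10.52 on the controls and 11.25, 10.34 and 10.99 on the NFAT1 shRNA arrays. Fbxo32, which encodes an F-box protein known as a FOXO target, read 5.35, 6.98 and 6.22 on the controls and 5.83, 8.38 and 8.81 on the NFAT1 shRNA arrays, with a difference of 1.49 ± 0.82 (SE, adjusted p = 0.379). The MEK5 gene Map2k5 read 7.87, 7.86 and 7.89 on the controls and 7.80, 8.59 and 8.63 on the NFAT1 shRNA arrays (difference 0.47 ± 0.22, adjusted p = 0.333).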
